A study of Mus musculus with 8 samples.

Results

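The 56 genes described here are the matrix metalloproteinases (Mmp, 13 genes), the ADAM metalloproteinases (15), the ADAMTS metalloproteinases (16), the ADAMTS-like proteins (5), the HtrA serine proteases (4) and the tissue inhibitors of metalloproteinases (Timp, 3). They were taken by gene symbol from the 18022 genes of a read count table of mouse subcutaneous fat. One of them, Htra1, drew attention because its level was lower in every KO library, so its difference between the labels is given as a description and without a test. The other 55 were chosen by family name, with earlier results of these data known. RefSeq lists 89 protein-coding genes with symbols of these families, and 33 of them are not among the 56, so the families are incomplete here.

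Poly(A) RNA of subcutaneous adipose tissue was sequenced in 8 libraries, each from its own C57BL/6J mouse (back-crossed for 4 generations per the labels). The mice of the 4 WT libraries carry a floxed Pkd1 gene, Pkd1(flox/flox), and those of the 4 KO libraries have the gene deleted in adipocytes, Pkd1adipo delta/delta. The study calls protein kinase D1 Pkd1, and its symbol in the table is Prkd1. The sources used here do not give the Cre driver, the exons removed, or the sex and age of the mice. Prkd1 reads do not check the labels (below), so WT and KO libraries mean libraries so labelled, and KO3 is the KO library of replicate 3. Levels are CPM (counts-per-million reads) after TMM scaling of library sizes.

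Extracellular proteases cut the matrix between cells and release growth factors and cell surface proteins. Matrix metalloproteinases use a zinc ion to cleave collagens, gelatin and other matrix proteins, and the Timp proteins block them. ADAM proteins sit in the cell membrane and shed the outer parts of other membrane proteins, while ADAMTS proteins are secreted and cut proteoglycans and procollagens. ADAMTS-like proteins share the carboxy-terminal domains of the ADAMTS enzymes but have no protease domain. HtrA1 and HtrA3 are secreted serine proteases that degrade matrix proteins and dampen TGF-beta signalling, and HtrA2 is a protease of mitochondria. In fat these enzymes take part in the remodelling of matrix around growing adipocytes.

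The libraries held between 2617755 and 2873457 reads, and the 56 members took between 0.38% and 0.441% of them. The targeted gene Prkd1 had 72 to 94 reads in WT libraries and 71 to 108 in KO libraries (log2 fold change 0.06 ± 0.15 SE), counted over the whole gene and tissue, so it did not check the labels. The 10 adipocyte markers summed to between 20421 and 27641 CPM. Skeletal muscle markers summed to 150 to 574 CPM in WT libraries, and to 3052, 1762, 435 and 3109 CPM in KO1 to KO4. Liver markers were highest in WT1 and WT4, and small intestine markers in WT2. In whole tissue, fewer cells of a type and less RNA per cell cannot be told apart.

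Of the 56 members, 47 had enough reads to be tested and 0 passed an adjusted p of 0.05 over all 14556 genes tested, where 0.0% of all genes passed (edgeR quasi-likelihood test, Benjamini-Hochberg adjustment). Apart from Htra1, the smallest adjusted p of a member was 0.905. Before adjustment, 3 of the 46 tested members other than Htra1 had a p under 0.05 with higher and 3 with lower values in KO libraries, against 2.71% and 1.77% of all tested genes. Of the members other than Htra1, DESeq2 and limma-voom with sample weights called 0. For these members, edgeR's exact test with a single dispersion for all genes called 1, Mmp12. Htra1 was chosen on this contrast and is left out of these counts. Log2 fold changes (KO minus WT) were below 0 for 25 of the 47 members, and for 49.9% of all tested genes. Their median was -0.01, and 0.0004 over all tested genes. With limma-voom, 29 of the 47 were below 0.

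**Figure D1:**
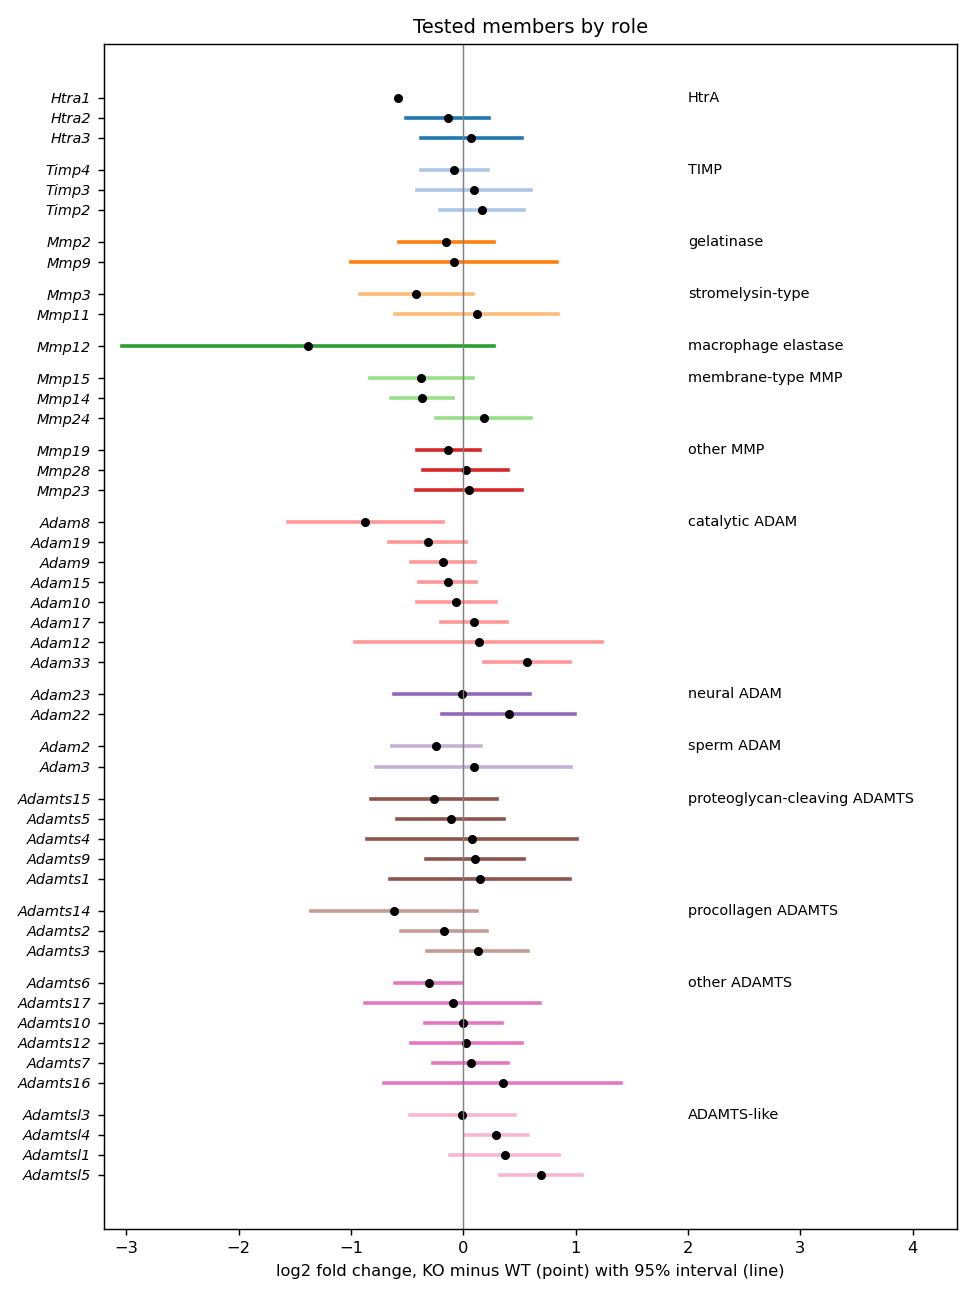
Log2 fold change (KO minus WT) of each tested member, as a point with its 95% interval as a line (Htra1, chosen on this contrast, without a line), grouped by role along the vertical axis. Most intervals cross 0, and the Adam8, Mmp14, Adamts6, Adam33, Adamtsl4 and Adamtsl5 lines do not.

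Htra1 (ENSMUSG00000006205, chromosome 7), a secreted trypsin-like serine protease, was the member by which the group was found. Its level was 197, 205, 182 and 154 CPM in WT1 to WT4, and 116, 131, 118 and 128 CPM in KO1 to KO4. All 4 KO libraries lay under the lowest WT library, WT4, and the spread among them was small, with a coefficient of variation of 5.98% against 12.3%. The means were 184 ± 22.7 and 123 ± 7.37 CPM (SD, n = 4), on 421 to 538 and 315 to 382 reads. The ratio of the means was 0.668, and the fitted log2 fold change was -0.58 ± 0.12 (SE), values on which the gene was chosen. The summed progenitor and fibroblast markers were between 2094 and 2681 CPM in WT libraries and between 1964 and 2807 CPM in KO libraries. The summed endothelial markers ranged from 1087 to 1368 and from 1004 to 1328 CPM. The sum of B and T cell markers was 74.1 to 140 CPM in WT and 50.5 to 70.2 CPM in KO libraries, without overlap. Ighm alone made up 79.1% of that sum, and 1 of its 11 markers in the table had enough reads to be tested. The other marker sums overlapped, but that of skeletal muscle only through KO3, at 435 CPM. The muscle sum was 1762 to 3109 CPM in KO1, KO2 and KO4, and at most 574 CPM in WT libraries. The part of these cell types in the level of Htra1 was not tested.

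The other HtrA genes overlapped between the labels. Htra3, the secreted relative of Htra1, stood at 467, 456, 402 and 477 CPM in WT1 to WT4 and at 669, 466, 482 and 278 CPM in KO1 to KO4. KO1 was the highest and KO4 the lowest of all 8 libraries, with the WT libraries in between. The log2 fold change of Htra3 was 0.07 ± 0.21 (SE; edgeR adjusted p = 0.998), and it was -0.14 without KO1 and 0.26 without KO4. Htra2, the mitochondrial member, stood at 47.6 ± 8.78 CPM in WT libraries and 43.1 ± 8.76 CPM in KO libraries. Its log2 fold change was -0.14 ± 0.17 (SE), and between -0.24 and -0.03 with a library left out. In the GENCODE M21 annotation 25.6% of the exon bases of Htra2 also belong to Aup1 and 18.2% to Loxl3, both on the other strand. The library kit does not mark strand, so the reads of Htra2 are uncertain. Htra4 had 1 to 6 reads in each library and was not tested. Per kilobase of exon, Htra3 was at 101 CPM, Htra1 at 64 and Htra2 at 16.1 in the WT libraries.

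The DNA before the start of Htra1 and Htra3 differs in composition, and is shown because, of these 2 secreted relatives, Htra1 separated the labels and Htra3 overlapped. The part of this DNA in their levels was not tested. Each line gives the 250 bases before the RefSeq start (GRCm38.p6), 5′ to 3′ on the gene's strand. Htra1 lies at chr7:130935953-130936202 (plus strand) and Htra3 at chr5:35679781-35680030 (minus strand). For comparison the same window is given of Mmp14, chr14:54431348-54431597 (plus strand), the other member with separate labels on the lower side, and of Mmp3, chr9:7445572-7445821 (plus strand), which holds the AP-1 element known from metalloproteinase promoters. Capitals mark matches, on either strand, to the AP-1 element (TGANTCA), the TATA box (TATAAA), the GC box (GGGCGG), the CCAAT box (CCAAT) and a SMAD element (CAGACA).
Htra1: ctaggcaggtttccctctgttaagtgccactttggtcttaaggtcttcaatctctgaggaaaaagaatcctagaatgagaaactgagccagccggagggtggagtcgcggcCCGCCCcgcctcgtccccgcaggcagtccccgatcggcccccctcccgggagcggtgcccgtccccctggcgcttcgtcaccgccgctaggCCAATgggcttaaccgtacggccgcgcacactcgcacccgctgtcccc
Htra3: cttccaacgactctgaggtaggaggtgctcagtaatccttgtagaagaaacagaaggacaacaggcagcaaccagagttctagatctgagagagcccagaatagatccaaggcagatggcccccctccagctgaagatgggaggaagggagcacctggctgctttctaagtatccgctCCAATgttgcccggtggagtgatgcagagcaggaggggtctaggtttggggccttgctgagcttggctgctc
Mmp14: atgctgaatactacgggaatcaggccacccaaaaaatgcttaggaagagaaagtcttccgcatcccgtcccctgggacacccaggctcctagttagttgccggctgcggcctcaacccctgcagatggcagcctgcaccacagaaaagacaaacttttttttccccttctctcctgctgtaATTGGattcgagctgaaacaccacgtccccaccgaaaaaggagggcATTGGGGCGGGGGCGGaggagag
Mmp3: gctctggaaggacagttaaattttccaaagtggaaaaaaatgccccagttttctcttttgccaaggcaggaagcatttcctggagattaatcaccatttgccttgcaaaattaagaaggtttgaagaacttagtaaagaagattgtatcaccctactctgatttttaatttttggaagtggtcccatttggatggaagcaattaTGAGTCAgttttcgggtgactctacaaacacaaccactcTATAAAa
The window of Htra1 had 22 CpG dinucleotides, a GC box starting 139 bases and a CCAAT box starting 48 bases before the start. The window of Htra3 had 3 CpG dinucleotides and a CCAAT box 72 bases before the start. The median number of CpG dinucleotides was 6 over all windows and 15 over those of members. Mmp14 had 2 GC boxes and 2 CCAAT boxes, where the second CCAAT box overlaps the first GC box and the GC boxes adjoin. Mmp3 had its AP-1 match 46 bases and a TATA match 7 bases before the start. Over all 32851 promoter windows of the table the AP-1 letters were in 6.75%, the TATA letters in 12.4%, the GC box in 32.7%, the CCAAT box in 33.8% and the SMAD letters in 17.1%. The table holds 39 windows of 35 members, and 7.69%, 7.69%, 56.4%, 28.2% and 2.56% of these held the 5 motifs in the same order. A match is a description of the letters and not a binding site.

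The inhibitors were among the most abundant members, and none of them separated the labels. Timp2, a secreted inhibitor that also helps Mmp14 to activate Mmp2, stood at 539, 611, 462 and 371 CPM in WT1 to WT4 and at 630, 632, 440 and 524 CPM in KO1 to KO4. The groups overlapped widely, and the log2 fold change was 0.17 ± 0.17 (SE; edgeR adjusted p = 0.998). It was 0.05 without WT4 and 0.28 without WT2. Timp3, an inhibitor bound to matrix, was high in WT1 at 582 CPM and in KO2 at 588 CPM, and lay between 319 and 455 CPM in the other 6 libraries. Its log2 fold change was 0.09 ± 0.23, and -0.10 without KO2. Timp3 lies within the Syn3 gene on the other strand, and each library had between 0.978 and 0.996 reads of Timp3 for each read given to Syn3, so both rows hold nearly the same reads. Timp4, an inhibitor abundant in fat, stood at 108 ± 12.5 and 102 ± 16.2 CPM, with a log2 fold change of -0.08 ± 0.14, and 0.01 without KO4. Timp1 was not analysed here.

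Among the matrix metalloproteinases, Mmp14 had lower values in the KO libraries. Mmp14, the membrane-type collagenase that activates Mmp2, stood at 101, 96.3, 91.9 and 89 CPM in WT1 to WT4 and at 72.1, 59, 75.4 and 85.9 CPM in KO1 to KO4. The labels did not overlap, but KO4 was only a little under WT4. The log2 fold change was -0.37 ± 0.13 (SE; edgeR adjusted p = 0.998), with a 95% interval from -0.64 to -0.09. Among the 46 tested members other than Htra1, Mmp14 was the 1 whose labels did not overlap with lower values in KO, and 1.39% of all tested genes did so. Mmp15, another membrane-type enzyme, had a log2 fold change of -0.38 ± 0.21 and Mmp24, of the same class, 0.18 ± 0.20, and both overlapped between the labels.

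The secreted enzymes had values that overlapped between the labels. Mmp2, the gelatinase of fibroblasts, stood at 131, 226, 172 and 118 CPM in WT1 to WT4 and at 156, 121, 130 and 175 CPM in KO1 to KO4. Its log2 fold change of -0.15 ± 0.20 turned to 0.05 without WT2, the highest library. Mmp9, the gelatinase of leukocytes, was highest in WT3 (26.4 CPM) and KO3 (24.9 CPM) and was between 6.87 and 15 CPM elsewhere. Mmp11, a stromelysin-type enzyme of fibroblasts and adipocytes, was at 81.7 and 77.5 CPM in KO1 and KO3 but at 29.2 and 35.7 CPM in KO2 and KO4. The WT libraries lay between these pairs, at 47.1 to 59.1 CPM. Mmp3, stromelysin 1, stood at 29.4 CPM in WT1 and between 12.5 and 17.9 CPM in the other 7 libraries, with a log2 fold change of -0.42 ± 0.23. Mmp19 (-0.13 ± 0.13), Mmp28 (0.02 ± 0.18) and Mmp23 (0.05 ± 0.22) had values near 0, and Mmp28 was -0.11 without WT1 and 0.18 without WT4. Mmp19 was -0.21 without KO4 and -0.06 without WT4. Both Mmp19 and Mmp28 share exon bases with a gene on the other strand, 22.3% of them for Mmp19 with Tmem198b.

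Mmp12 and Adam8, both known from macrophages, had low read counts and the largest negative log2 fold changes of the members. For Mmp12, the macrophage elastase, WT1 to WT4 held 35, 4, 17 and 10 reads, against 0, 6, 7 and 13 for KO1 to KO4. WT1 was far above the others, KO1 had none, and WT2 lay under 3 of the 4 KO libraries. The log2 fold change of -1.38 ± 0.74 (SE; edgeR quasi-likelihood adjusted p = 0.998) was -0.72 without WT1. In the authors' deposited table Mmp12 had a log2 fold change of -1.39 and an adjusted p of 0.0132. It was the 1 member among 436 genes, or 2.42%, at an adjusted p under 0.05, of which 178, or 0.988% of the table, were lower in KO. The exact test with a single dispersion for all genes also gave 436 genes. Its values for Mmp14, -0.3748 and an adjusted p of 0.964, equalled the deposited ones. Its call of Mmp12 is therefore not separate from that of the authors. For Adam8, a sheddase of leukocytes, WT1 to WT4 held 26, 16, 25 and 16 reads, against 6, 12, 11 and 18 for KO1 to KO4, with a log2 fold change of -0.87 ± 0.32 (adjusted p = 0.998). Only KO4 overlapped the WT libraries. The 11 macrophage markers in the table summed to 1182 ± 191 CPM in WT libraries and 1106 ± 82.2 CPM in KO libraries, with ranges of 962 to 1407 and 1008 to 1209 CPM, and their part in these 2 values was not tested.

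**Figure D2:**
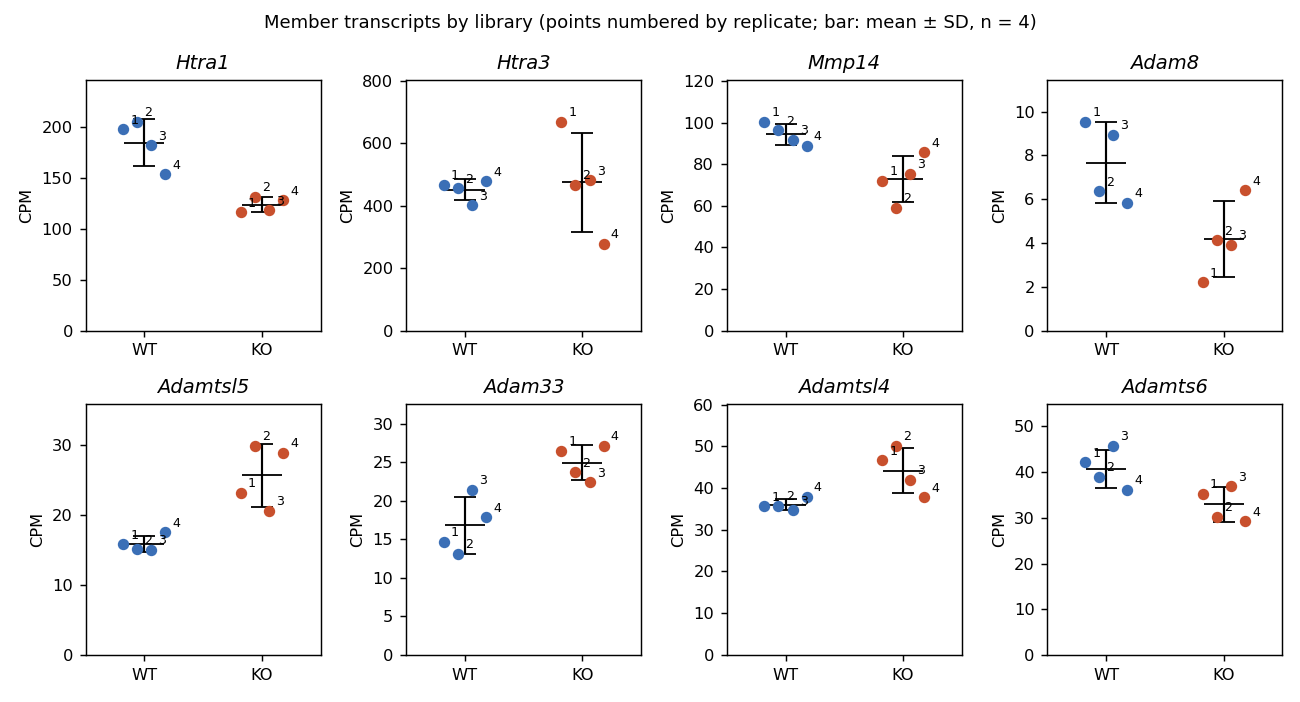
CPM (vertical axes, from 0) in each library labelled WT or KO for Htra1, Htra3 and 6 members with an unadjusted p under 0.05, with points numbered by replicate and bars for mean and SD (n = 4). The labels do not overlap for Htra1, Mmp14, Adamtsl5 and Adam33, while KO1 and KO4 lie at the ends for Htra3.

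Of the catalytic ADAM enzymes, Adam33 had higher values in KO libraries. Adam33, a metalloproteinase of mesenchymal cells and smooth muscle, stood at 14.7, 13.1, 21.4 and 17.9 CPM in WT1 to WT4 and at 26.5, 23.7, 22.4 and 27.1 CPM in KO1 to KO4. The lowest KO library, KO3, was just above the highest WT library, WT3. The log2 fold change was 0.57 ± 0.18 (SE; edgeR adjusted p = 0.998), with a 95% interval from 0.18 to 0.95. The summed smooth muscle and pericyte markers ranged from 889 to 1125 CPM in WT libraries and from 887 to 1139 CPM in KO libraries. The skeletal muscle markers summed to 150 to 574 CPM in WT libraries and to 3052, 1762, 435 and 3109 CPM in KO1 to KO4. The part of these cell types in the level of Adam33 was not tested.

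The broadly expressed sheddases Adam10 and Adam17 had small differences. Adam10, the sheddase of Notch receptors, stood at 81.6 ± 15 and 78 ± 15.2 CPM (log2 fold change -0.06 ± 0.16), and its sign turned without KO1 (0.05) or WT1 (0.07). Adam17, which sheds TNF, stood at 39 ± 2.05 and 41.7 ± 5.86 CPM (0.10 ± 0.14). Adam9 (-0.18 ± 0.13) and Adam15 (-0.14 ± 0.12), both abundant in fat, were a little lower in the KO libraries, with labels that overlapped. Adam9 was -0.09 without KO1 and -0.11 without WT1, and Adam15 was -0.21 without WT3. Of the exon bases of Adam15, 20.6% also belong to a gene on the other strand. Adam19 had -0.32 ± 0.16, and -0.20 without KO1, which at 27.2 CPM was the lowest library. Adam12, a marker of activated mesenchymal cells, was high in WT3, KO3 and KO4, at 69.7, 51.6 and 57.1 CPM, and between 22.3 and 27.6 CPM in the other 5 libraries. This split did not follow the labels, and the log2 fold change of Adam12 was 0.14 ± 0.47.

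ADAM genes known from neurons and sperm overlapped between the labels. Adam22 and Adam23, receptors for LGI proteins of neurons, had log2 fold changes of 0.41 ± 0.28 and -0.01 ± 0.28. Adam11, of the same neural group, had 40 reads in KO1 and 3 to 9 reads in each other library. KO1 also had the highest sum of nerve and Schwann cell markers, 615 CPM against 289 to 382 CPM in the other 7 libraries, and their part in the value of Adam11 was not tested. Of the sperm proteins, Adam2 had 52 to 97 reads and Adam3 10 to 36 reads in every library, while Adam5 and Adam1a had at most 13.

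The most abundant ADAMTS gene was Adamts5, an enzyme that cuts the proteoglycans aggrecan and versican. It stood at 806, 585, 595 and 824 CPM in WT1 to WT4 and at 407, 812, 556 and 824 CPM in KO1 to KO4. KO1 was lowest, and 4 libraries, 2 of each label, were at 806 CPM or more. The log2 fold change of -0.11 ± 0.22 turned to 0.06 without KO1. Adamts1, its neighbour on chromosome 16 with no coding gene between them, was highest in KO2 at 114 CPM and lowest in KO1 at 41.9 CPM. Its log2 fold change was 0.15 ± 0.35, and -0.20 without KO2. Across the 8 libraries the log2 CPM of the pair had a Pearson correlation of 0.816 (Spearman 0.81), and 0.867 after the mean of each label was removed, a description of 8 points that share their libraries and scaling. Adamts4, Adamts9 and Adamts15, the other tested enzymes that cut proteoglycans, had log2 fold changes of 0.08 ± 0.43, 0.11 ± 0.20 and -0.26 ± 0.26.

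The procollagen-trimming and remaining ADAMTS enzymes overlapped between the labels. Adamts2, which removes the amino-terminal propeptide of collagen I and III, stood at 133, 170, 163 and 149 CPM in WT1 to WT4 and at 96.7, 132, 124 and 192 CPM in KO1 to KO4. KO4 was the highest and KO1 the lowest of all libraries, and the log2 fold change of -0.17 ± 0.18 was -0.38 without KO4 and -0.04 without KO1. Adamts14 and Adamts3, which have the same kind of substrate, had -0.62 ± 0.34 and 0.13 ± 0.21. Adamts6, a member linked to microfibrils, stood at 40.8 ± 4.15 and 32.9 ± 3.79 CPM, with a log2 fold change of -0.31 ± 0.14 (SE; edgeR adjusted p = 0.998) and 1 library of each label in the other's range. Adamts10, its closest relative, stood at 66.8 ± 11.9 and 66.8 ± 12.9 CPM, with a log2 fold change under 0.01 in size and a 95% interval from -0.34 to 0.34. Adamts7, Adamts12, Adamts16 and Adamts17 had values between -0.09 and 0.35.

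The ADAMTS-like genes had 3 of 4 tested members with positive log2 fold changes and the highest median of the families, 0.33. Adamtsl5, a secreted protein that binds fibrillin microfibrils, stood at 15.8, 15.1, 15 and 17.5 CPM in WT1 to WT4 and at 23.2, 29.9, 20.6 and 28.9 CPM in KO1 to KO4. All KO libraries were above all WT libraries, which lay close together. The means were 15.9 ± 1.15 and 25.6 ± 4.46 CPM (SD, n = 4), a ratio of 1.62. The log2 fold change was 0.69 ± 0.17 (SE), with a 95% interval from 0.33 to 1.06 and an adjusted p of 0.905 (edgeR), and it was between 0.61 and 0.78 with each library left out. Adamtsl5 and Adam33 were the 2 members with separate labels on the higher side, where 1.53% of all tested genes were.

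Adamtsl4, another microfibril protein, stood at 35.6, 35.8, 34.7 and 37.9 CPM in WT1 to WT4 and at 46.7, 50.1, 42 and 37.8 CPM in KO1 to KO4. Only KO4 lay in the range of the WT libraries, and the log2 fold change was 0.29 ± 0.13 (SE; edgeR adjusted p = 0.998). Adamtsl1 had 0.37 ± 0.23, and 0.21 without WT4 and 0.58 without WT3. Adamtsl3 had -0.01 ± 0.22, with both signs when a library was left out. Adamtsl2 had 2 to 24 reads and was not tested. Summed over the 5 genes, the ADAMTS-like transcripts stood at 95.8, 78.8, 92.6 and 79.2 CPM in WT1 to WT4 and at 104, 117, 97.4 and 113 CPM in KO1 to KO4. These sums did not overlap, but they hold Adamtsl5 and Adamtsl4, which are described above, and no test was made of them.

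Summed over each other family, levels overlapped between the labels. The Timp genes summed to 1003 ± 181 and 1085 ± 212 CPM, the ADAMTS genes to 1224 ± 155 and 1158 ± 275, the HtrA genes to 684 ± 41.3 and 642 ± 163, the ADAM genes to 557 ± 33.1 and 532 ± 48.1, and the Mmp genes to 535 ± 42 and 487 ± 57.5 CPM. Over all 56 members the sums ranged from 3850 to 4413 CPM in WT and from 3757 to 4349 CPM in KO libraries. A single gene made up much of several sums: Htra3 was 69.7% of the HtrA reads, Adamts5 56.8% of the ADAMTS reads and Timp2 50.4% of the Timp reads. The log2 difference of the HtrA sum was -0.13, beside a log2 fold change of -0.58 for Htra1.

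**Figure D3:**
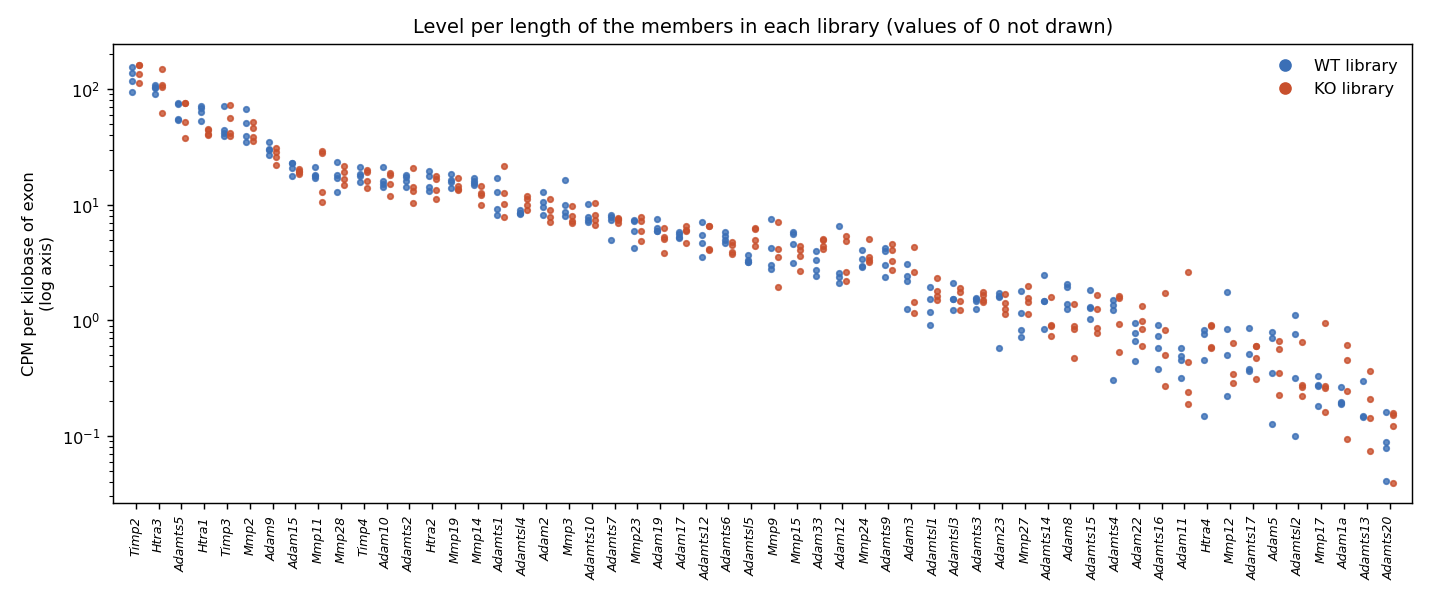
CPM per kilobase of exon (log axis) of the 56 members in each library, ordered from the highest mean to the lowest, with WT libraries and KO in 2 colours. Levels span from 135 for Timp2 to 0.106 for Adamts20, and the colours of Htra1, near the left end, separate.

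Compared per length, a few genes made up most of the members' transcripts. Over all 8 libraries Timp2 was at 135 CPM per kilobase of exon, Htra3 at 104, Adamts5 at 62.7, Htra1 at 53.4, Timp3 at 50.7 and Mmp2 at 45.6. Next came Adam9 at 28.7 and Adam15 at 20.3. There were 17 members above 10 and 12 below 1. In the WT libraries, Adamts5 (65.1) and Htra1 (64) did not differ in order beyond their spread. The exon lengths are from GENCODE M21, a later annotation than that of the counts, so the order of close neighbours is uncertain.

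**Figure D4:**
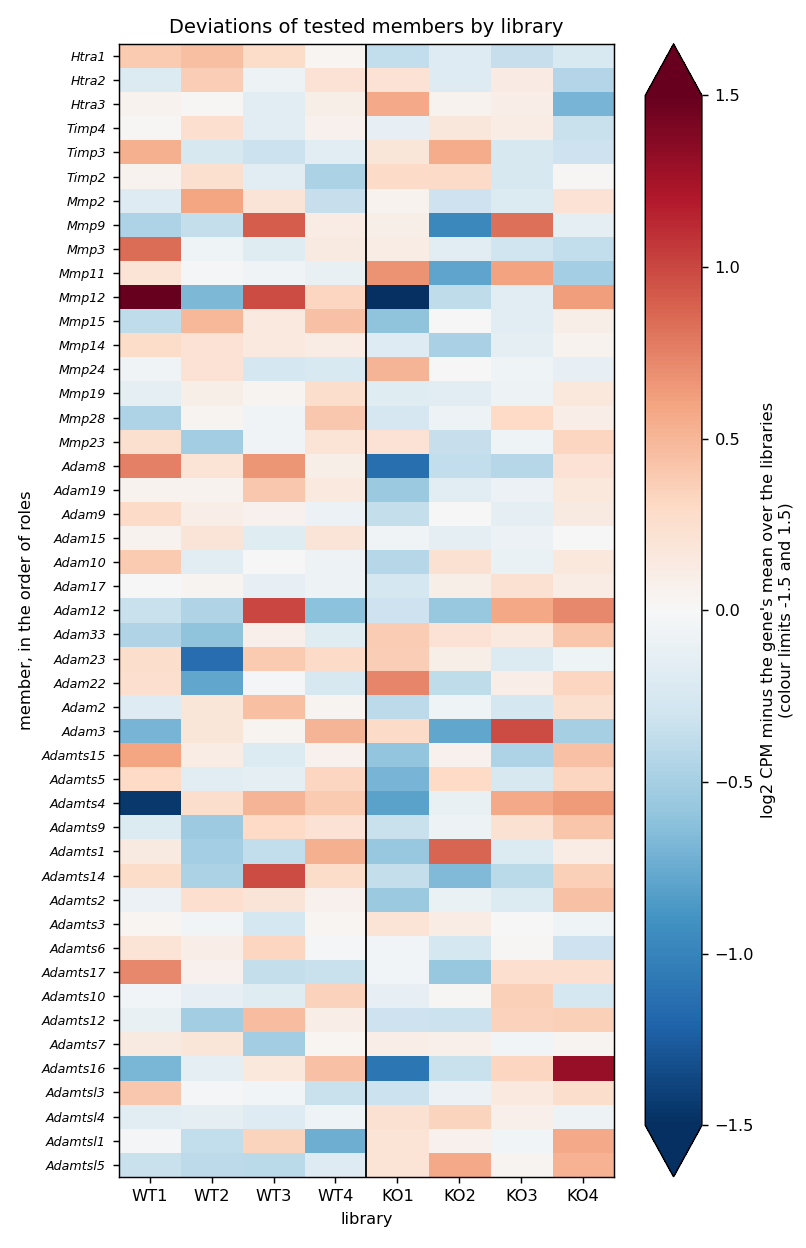
Log2 CPM of the 47 tested members (rows, by role) in each library (columns) minus the gene's mean over the 8 libraries, in colour. Htra1 and Mmp14 are above their mean in all WT libraries and Adamtsl5 is below it there. Adam12, Mmp12, Adamts4 and Adamts16 vary widely among libraries of the same label. Of these, Mmp12 also has a log2 fold change of -1.38, with values above and below its mean in each label.

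Genes around the members were described by lists of related proteases, inhibitors and substrates. None of the 8 lists had a gene past an adjusted p of 0.05 (edgeR quasi-likelihood test). The cathepsins and cystatins, lysosomal and secreted proteases with their inhibitors, had negative log2 fold changes for all 13 tested genes, with a median of -0.24. Over all tested genes 49.9% were negative and the median was 0.0004. Ctsz, a carboxypeptidase of lysosomes, stood at 153 ± 16.3 and 120 ± 12.2 CPM (log2 fold change -0.36 ± 0.12 SE). Ctsd and Ctsb, the main aspartic and cysteine proteases of lysosomes, had -0.39 ± 0.19 and -0.27 ± 0.13. The list summed to 4944, 4329, 4562 and 3836 CPM in WT1 to WT4 and to 3570, 3512, 3416 and 4122 CPM in KO1 to KO4. The B and T cell markers, at 140, 96.7, 108 and 74.1 CPM and at 51.5, 60.1, 50.5 and 70.2 CPM, were likewise highest in WT1 and lowest in KO3, and the macrophage markers were highest in WT2 and lowest in WT4. Ighm made up 79.1% of the B and T cell sum. The part of B and T cells and of macrophages in the list was not tested. The median was -0.09 without WT1 and -0.14 without KO2, and with limma-voom 10 of the 13 were negative.

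Among the collagens and their crosslinking enzymes, main substrates of these proteases, 20 of 21 genes had negative values, with a median of -0.26. Col18a1, the basement membrane collagen that yields endostatin, stood at 236, 240, 219 and 238 CPM in WT1 to WT4 and at 138, 172, 160 and 193 CPM in KO1 to KO4. Its labels did not overlap, and its log2 fold change was -0.49 ± 0.13 (SE; edgeR adjusted p = 0.905). Col5a2 had -0.40 ± 0.16, and Col14a1, a fibril-associated collagen, 0.43 ± 0.17, the only positive value. Summed, the list stood at 6582 ± 848 and 5443 ± 1069 CPM. Without KO1 there were 18 of 21 negative genes and a median of -0.14, and the median was -0.17 without WT3 and -0.39 without KO4. A related list was already known to be lower on these libraries, so this is no separate evidence.

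The lists on TGF-beta and on other substrates stood near the values of all genes. Of 36 tested genes of TGF-beta and BMP signalling, the pathway that HtrA1 is known to dampen, 20 were positive and 16 negative, with a median of 0.04. Without WT3, 20 were negative and the median was -0.02. Among them, Inhbb, an activin subunit, had -0.34 ± 0.16, Ltbp3, which holds latent TGF-beta, -0.26 ± 0.13 and Ltbp2 0.38 ± 0.23. Inhbb was -0.18 without WT2, and Ltbp2 was 0.21 without KO3 and 0.23 without WT1. The 25 proteoglycan and glycoprotein substrates had a median of -0.06 (0.02 without WT2), with Eln, elastin, at 0.54 ± 0.24 (0.35 without KO4), Fbln5, an elastic fibre protein, at -0.37 ± 0.19 and Vtn, vitronectin, at -1.11 ± 0.41. The 18 shed substrates and Notch genes had a median of -0.01 (from -0.06 without WT3 to 0.04 without KO1), with Jag2, a Notch ligand, at 0.39 ± 0.17 (0.24 without KO2), App at -0.24 ± 0.14 and Notch3 at 0.18 ± 0.16. Notch3 was 0.32 without KO1 and 0.08 without KO4. The labels did not overlap for Jag2 and for Tgfbr3 of the TGF-beta list (0.11 ± 0.11), with higher values in KO, as for 1.53% of all tested genes. On the lower side this held for Col18a1 (above) and Serpinf1 (below), and for 1.39% of all tested genes.

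Protease regulators had values on both sides of 0, and none passed the threshold. Serpinf1, the secreted serpin PEDF, stood at 218, 204, 240 and 200 CPM in WT1 to WT4 and at 177, 170, 130 and 177 CPM in KO1 to KO4, with labels that did not overlap and a log2 fold change of -0.40 ± 0.13 (SE; edgeR adjusted p = 0.998). Serpina3n, an acute phase serpin, had -0.48 ± 0.21. Reck, a membrane inhibitor of Mmp14 and Mmp9, had 0.52 ± 0.23, and Pcolce, an enhancer of procollagen trimming, -0.27 ± 0.14 (-0.16 without WT3). Spock2, a matrix proteoglycan, had 1.25 ± 0.52, with 58.9 CPM in KO1 and 9.12 to 19.9 CPM elsewhere, and 0.54 without KO1. The 16 tested activators and membrane regulators had a median of 0.05 (-0.01 without WT1), the 16 other serine proteases and serpins -0.08 (0.03 without KO3), and the 7 genes of the plasminogen system -0.05 (0.04 without KO3). Plg, plasminogen, was at 33.4 and 28.8 CPM in WT1 and WT4 and between 0.357 and 9.95 CPM elsewhere, and liver markers summed to 1836 and 1596 CPM in WT1 and WT4 and to between 283 and 1004 CPM elsewhere. Its log2 fold change was -1.90 ± 1.22, and Hpn, a membrane protease of liver, had -1.25 ± 0.40. The part of liver RNA in Plg, Hpn and Vtn was not tested. Plaur, the urokinase receptor, stood at 7.08 ± 1.40 and 8.04 ± 2.34 CPM. Its log2 fold change of 0.19 ± 0.27 was 0.37 without KO1, 0.05 without KO2 and 0.05 without WT3. S100a10, a plasminogen receptor subunit, had -0.11 ± 0.12, and -0.02 without WT2.

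**Figure D5:**
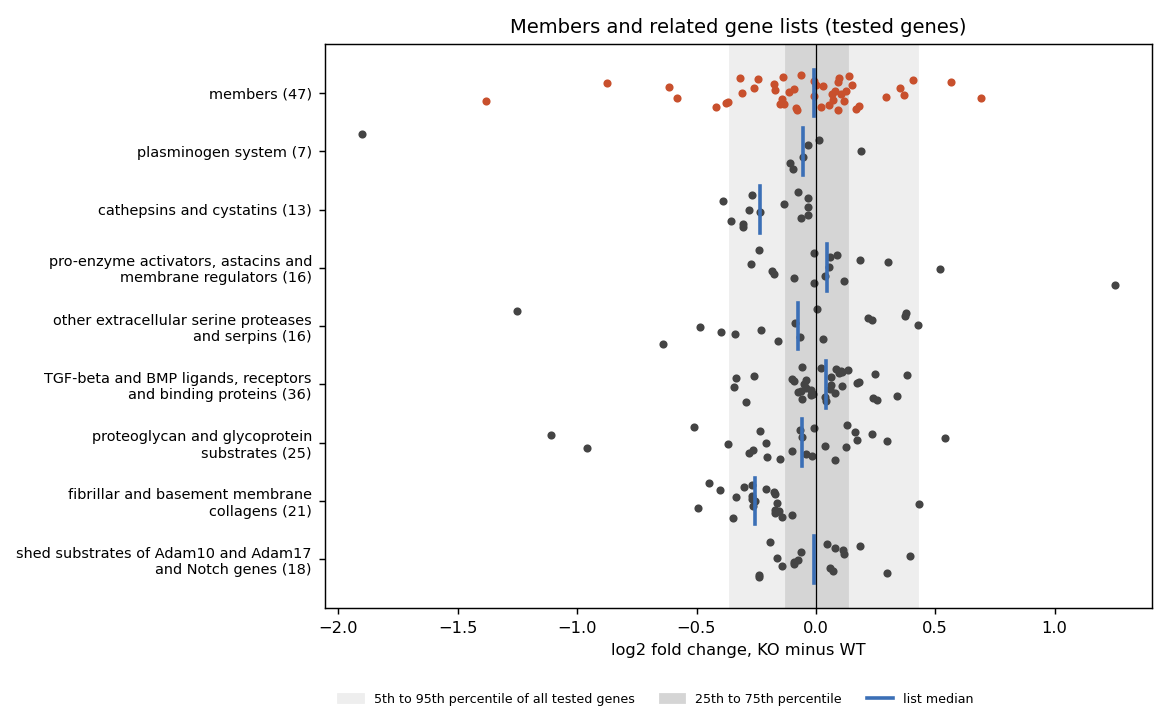
Log2 fold change (KO minus WT, horizontal axis) of the tested members and of the genes of each related list (rows, with their number), with list medians as blue bars and grey bands for percentiles of all tested genes. The points of the cathepsin and collagen lists lie mostly left of 0, at medians of -0.24 and -0.26, and those of the members on both sides.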

How the data were processed

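Per the labels' protocols, column-purified total RNA was treated with DNase, selected for poly(A) and turned into libraries with an unstranded kit. FastQC, Bowtie2, edgeR and the build mm9 are named, without roles or versions, in the submitters' processing notes; how reads were counted, and on which annotation, is not stated there. Raw counts for each Ensembl gene were deposited by the authors, along with their own WT and KO comparison: its log2 fold changes, log2 mean CPM and p-values (plain and adjusted) are, per the file headers, named as edgeR names them. Every gene of the table has at least 8 reads in total.

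Groups were taken from the titles and columns matched by mouse label. Counts were tested in R 4.3.3 by the quasi-likelihood F test of edgeR 4.0.16, with TMM scaling, filterByExpr, a robust fit and Benjamini-Hochberg adjustment over 14556 genes at 0.05. A standard error is the fitted log2 value divided by the root of F. Precision is limited by the reads per gene and by 4 libraries per label. Alternatives were RLE scaling, no count filter, at least 20 reads in 4 libraries, DESeq2 1.42.0, limma-voom with sample weights (limma 3.58.1), an exact test with a single dispersion, the replicate number as a block and each library left out. Marker sums were compared by exact permutation of log2 CPM with a pseudocount of 0.5. Any 2 libraries of a label differed by a chi-square of at least 4.45 per gene, so none was taken for a copy.

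The members and lists were chosen with earlier results of these data known. Named were all HtrA and Timp genes, the 4 most abundant of each other family, members with an unadjusted p under 0.05 or separate labels, and up to 3 genes per related list by smallest p. Other members are given by their values, and were singled out after those were seen. Promoters are from RefSeq (GRCm38.p6), another build than that of the counts, and exon lengths and overlaps from GENCODE M21; both were matched by symbol or gene ID. All 56 members had an exon length. 1 gene of a related list is not reported here, and the list's count and median are without it.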

Additional observations from a re-analysis of the deposited data

Results flagged for a closer look

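Of 112 groups of 4 libraries, 1 per member and label, 7 held a library far from the other 3, and chance gives about 1 in 20. Timp3 stood at 582 CPM in WT1 and at 319 to 358 CPM in the other WT libraries. Adam12 stood at 69.7 CPM in WT3 against 22.3 to 27.2 CPM. Adam23 stood at 10.3 CPM in WT2 against 28.3 to 31.1 CPM. In KO1, Adam11 stood at 14.7 CPM (40 reads) against 1.07 to 2.50 CPM, and Mmp17, a membrane-type metalloproteinase, at 6.25 CPM (17 reads) against 1.07 to 1.78 CPM. Adamtsl2 stood at 5.15 CPM (15 reads) in KO2 against 1.78 to 2.21 CPM. Adam1a stood at 1.99 CPM (5 reads) in WT2 against 1.43 to 1.47 CPM (4 reads each), which is not far apart. Of its exon bases, 63.7% and 24% belong to Gm42878 and Mapkapk5.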

How the results depend on the processing

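Over all genes, 0 passed in the quasi-likelihood test, 49 with DESeq2 and 436 with the exact test with one common dispersion; with a library left out the count was between 0 and 50, and 50 came without KO3. Among the members other than Htra1, which was chosen on this contrast, the count was 0, and 1 with the exact test. All other alternatives, DESeq2 among them, gave 0. With the replicate number as a block, 0 genes and 0 members passed. Libraries with the same number had correlations between -0.29 and -0.14 in their deviations, so the numbers did not pair the mice, and the block changed no call. Signs turned for 10 of the 26 named members, all with values near 0 or spread widely, and for 0 of the 24 named list genes. The list genes were named by their smallest p, which favours a steady sign, so these counts cannot be compared. With limma-voom, Htra3 was -0.0476, Mmp28 -0.0196 and Adamtsl3 0.0936, and with at least 20 reads in 4 libraries Adamts10 was 0.0044. With a library left out the log2 fold changes ranged as follows: Adam10 from -0.15 to 0.0717, Adamts1 from -0.20 to 0.38, Adamts10 from -0.13 to 0.13, Adamts5 from -0.25 to 0.0573, Adamtsl3 from -0.12 to 0.15, Htra3 from -0.14 to 0.26, Mmp2 from -0.28 to 0.0514, Mmp28 from -0.11 to 0.18, Timp3 from -0.10 to 0.33 and Timp4 from -0.15 to 0.0128. The log2 differences of marker sums ranged, with a library left out, from -0.05 to 0.10 for adipocytes, -0.061 to 0.11 for progenitors, -0.18 to 0.004 for macrophages, -0.0019 to 0.12 for smooth muscle, -0.13 to 0.23 for nerve, 2.10 to 3.07 for skeletal muscle, -0.98 to -0.67 for B and T cells, -2.05 to -1.26 for epithelium, -1.67 to -0.48 for small intestine, -1.09 to -0.19 for liver, -0.55 to -0.04 for erythroid cells, -1.04 to -0.09 for mesothelium, 0.07 to 0.40 for neutrophils and mast cells and -0.20 to -0.04 for endothelium. The sums of the ADAMTS and HtrA genes ranged from -0.21 to 0.06 and from -0.27 to 0.04, of the Timp genes from 0.0027 to 0.21, of the Mmp genes from -0.18 to -0.05 and of the ADAM genes from -0.12 to -0.02. The cause of these shifts was not tested. The 9 members that were not tested had 0 to 40 reads in a library.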

Other observations

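Some members moved together across libraries without regard to the label. Of 1081 pairs of tested members, 2 had a Pearson correlation over 0.9 after the mean of each label was removed, Adamts9 with Adamts12 at 0.939 and Adam8 with Mmp12 at 0.913. Adamts12, which cuts cartilage oligomeric matrix protein, stood at 51.4, 38.6, 76.8 and 59.8 CPM in WT1 to WT4 and at 44.9, 44.3, 71.1 and 71.3 CPM in KO1 to KO4. Adamts9 followed it, at 45.1, 35.4, 64 and 60.2 CPM and at 41.2, 49.1, 60.8 and 69.5 CPM. Both were high in WT3, KO3 and KO4, the libraries that were also high in Adam12, and Adamts9 was as high in WT4, where Adam12 was lowest. The 4 most negative pairs were Adamts4 with Mmp3 at -0.951, Adamts2 with Htra3 at -0.95, Adam12 with Adamts3 at -0.921 and Adamts9 with Mmp24 at -0.911. These are the extremes of many pairs over 8 points that share their scaling, and are given as a description. Htra1 and Adamtsl5 had a correlation of -0.806 over the 8 libraries and 0.083 after the mean of each label was removed, and Htra1 and Mmp14 0.762 and 0.137. Htra1 was chosen as lower in every KO library, and the labels of Adamtsl5 and Mmp14 did not overlap. The correlations over the 8 libraries follow from this.

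The 14 marker sums had exact two-sided permutation p-values between 0.0286, the smallest that 4 against 4 can give, and 0.943. The smallest was that of B and T cell markers, at 105 ± 27.6 and 58.1 ± 9.18 CPM, where Ighm made up 79.1% (0.267 adjusted over the 14 sums). Of 12 epithelial markers 2 were in the table, at 2.50 to 15.1 CPM in WT libraries and 1.03 to 2.85 CPM in KO libraries.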
